A study of Sus scrofa with 36 samples.

Results

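The paraoxonase family (PON1, PON2 and PON3) was followed in the liver of 36 castrated male growing pigs, 1 array per animal. A probe belonged to the family when the array design gave PON1, PON2 or PON3 as its gene name, its RefSeq accession or its description, and it was kept when the scanner software called it well above background on 6 or more of the 36 arrays. Of 60305 probes on the array, 12 were family probes and 11 of them were kept, among 44796 kept probes in all. All 11 were well above background on 36 of 36 arrays. The remaining probe, A_72_P020806, carries a description naming PON3 and was well above background on 0 of 36 arrays. No kept probe was near the limit of 6 arrays. The probes were thus chosen by their names and selected on these detection calls, which are not used as a result here.

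The animals were Large White pigs (LW), Creole pigs (CR) and crosses of those breeds (F1), with 12 animals per breed. In each breed, 6 animals were slaughtered at thermoneutrality (TN, 24 °C) and 6 after 5 days of heat stress (HS, labelled 30 °C, while the protocol gives 32 °C, and the methods allow 4 or 5 days), so temperature and slaughter day cannot be told apart. All were castrated and raised at one site. In the methods, the 12 animals of a breed came in blocks of 4 littermates, and pens held pigs of different blocks. Littermates were thus slaughtered at both temperatures, but the labels do not name them. Litter is not part of the fits below, so p-values between breeds treat related animals as independent. Those between temperatures leave the pairing of littermates unused. The questions addressed were whether the liver signal of the family differed between TN and HS, between breeds, and between the F1 and the mean of its parent breeds.

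Paraoxonases are calcium-dependent enzymes that open lactone rings, and PON1 also hydrolyses aryl esters and the oxidised forms of some organophosphates. PON1 and PON3 are made mainly in the liver, secreted, and carried in blood on high-density lipoprotein (HDL) particles. PON2 stays inside cells, in the membranes of the endoplasmic reticulum and mitochondria, and is made in many tissues. The genes lie next to each other in mammals. In the pig assembly Sscrofa11.1, RefSeq places PON1 on chromosome 9 from 74943646 to 74974720, PON3 from 74983040 to 75017947 and PON2 from 75027270 to 75051441.

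The probes are 60 bases long, and 3 of those kept carry the name PON1. Their sequences are shown because these probes did not behave alike. A_72_P035606 is named PON1 by its gene name, its accession and its description, and starts at base 704 of that transcript. O12638 is named PON1 through a human protein entry. A_72_P385478 has the gene name and description of PON1 but a RefSeq accession that belongs to PON3, so its labels disagree.
A_72_P035606: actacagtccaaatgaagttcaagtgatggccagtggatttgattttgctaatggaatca
O12638: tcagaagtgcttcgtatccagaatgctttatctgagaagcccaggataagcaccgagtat
A_72_P385478: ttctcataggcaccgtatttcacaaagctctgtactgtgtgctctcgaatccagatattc
Which transcript each of these 3 probes binds was not tested, since no pig transcript sequence was used here.

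The PON3 probes A_72_P182996, A_72_P223547 and A_72_P504977 start at bases 1762, 1355 and 1295 of their transcript entries. Their first 30 bases are shown because they are separate targets of 1 gene that gave the same division of the animals.
A_72_P182996: gctcttctggctgattcaataaccactatt
A_72_P223547: ggaagtagaaaagcagaaagattacataat
A_72_P504977: agtggaactataagtaaatgacaaacacca
Of the 5 probes for PON2, A_72_P006641 and O9320 share 57 of their 60 bases and are close to a repeat of 1 measurement. Their first 30 bases follow, with the shared part in capitals.
A_72_P006641: actGACAGATGTTGTGATGCTTTGGACTTA
O9320: GACAGATGTTGTGATGCTTTGGACTTACAT
A_72_P538923 and A_72_P107711 start at bases 366 and 695 of the PON2 transcript. A_72_P306623 is tied to PON2 by its description alone. The PON1 gene is represented below by A_72_P035606, PON2 by O9320 and PON3 by A_72_P182996, the brightest probe of each gene with undisputed labels and a gene name. For PON1, O12638 also met the naming condition and was dimmer on average.

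The median raw signal of an array was 70.0 to 92.0 units, the background 18.0 to 25.0, and 39644 to 44025 spots per array were well above background, with no saturated reading. The 36 arrays were on 5 slides. The first principal component held 18.6% of the variance, and on it LW TN replicates 1 and 6 (-4.83 and -3.04) stood apart from the other 10 LW animals (-44.2 to -24.8) and lay within the range of the F1 animals (-21.3 to 36.9). The lowest F1 values were those of F1 HS replicate 2 (-21.3), F1 TN replicate 3 (-18.1) and F1 HS replicate 1 (-17.0). All labels were kept, and whether any label is wrong was not tested. Counts without the LW TN pair are given below, and no fit left out the low F1 animals together. All 7 measured hepatocyte markers, albumin among them, were well above background on every array. Signals are given on a log2 scale after quantile normalization, so a difference of 1 is a doubling of fluorescence. Levels are compared between animals within 1 probe only.

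PON3 divided the animals into separate sets. Its signal at A_72_P182996 was 9.03, 9.47 and 13.10 in LW TN (lowest, median and highest of 6 animals) and 8.72, 9.53 and 13.25 in LW HS. It was 10.05, 13.15 and 13.74 in CR TN and 9.97, 13.15 and 13.76 in CR HS. In the crossbred animals it was 9.17, 11.55 and 14.06 in F1 TN and 12.81, 13.83 and 14.25 in F1 HS. Every group except F1 HS held animals from both ends of the range, and the groups overlapped. No animal lay between 10.51 and 12.76, a gap of 2.25 on the log2 scale, with 14 animals below it and 22 above.

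The same 14 animals lay below the gap at 5 probes. The gap was 1.88 at A_72_P223547 and 1.83 at A_72_P504977, the other PON3 probes. It was 2.42 at O12638 and 2.33 at A_72_P385478, both of which carry the name PON1. The widest gap at the other 6 family probes was between 0.17 and 0.34. Among the 44723 kept probes with no missing reading, 82 had a widest gap of 1 or more with at least 6 animals on each side, and the 5 family probes ranked between 14 and 33 by gap width. Only these 5 of the 44723 separated the 14 animals from the 22 without overlap. The gap was seen first and counted afterwards, so these counts are a description.

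Of the 14 animals below the gap, 8 were LW, 3 were CR and 3 were F1. By group, there were 4 of 6 in LW TN, 4 of 6 in LW HS, 1 of 6 in CR TN, 2 of 6 in CR HS, 3 of 6 in F1 TN and 0 of 6 in F1 HS. Each of the 5 slides held animals of both sets, with 1 of 4, 2 of 8, 4 of 8, 4 of 8 and 3 of 8 animals below the gap on slides 1 to 5. LW TN replicates 1 and 6, which stood apart on the first principal component, were the LW TN animals above the gap.

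**Figure D1:**
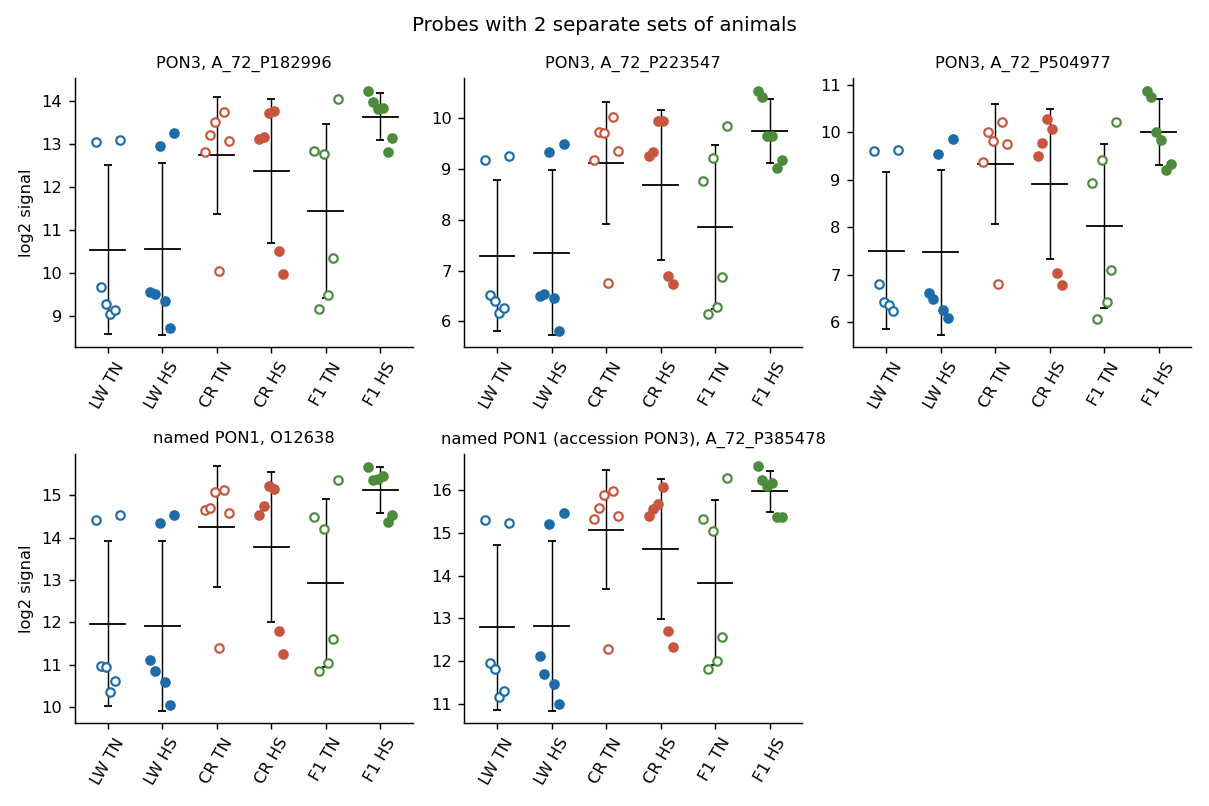
Signal of the 3 PON3 probes and of 2 probes named PON1, in each animal by group (log2 signal, 1 point per animal, open for TN and filled for HS, with the mean as a line and the SD as a bar). The same 14 animals lie below a gap of 1.83 to 2.42 at every probe, and no F1 HS animal is among them.

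The 3 probes named PON1 did not all run alike. O12638 had 10.36, 10.97 and 14.52 in LW TN (lowest, median, highest) and 14.36, 15.36 and 15.67 in F1 HS. A_72_P385478 had 11.17, 11.89 and 15.29 in LW TN and 15.37, 16.12 and 16.55 in F1 HS. Both therefore ran with the PON3 probes. A_72_P035606 was high where those probes were low. Its signal was 13.86, 14.26 and 14.55 in LW TN and 13.98, 14.30 and 14.53 in LW HS. It was 13.42, 13.58 and 14.21 in CR TN and 13.38, 13.78 and 13.97 in CR HS. It was 13.38, 13.74 and 14.27 in F1 TN and 13.10, 13.43 and 13.67 in F1 HS. No F1 HS animal reached the lowest LW value, and no CR HS animal reached the lowest LW HS value. That lowest LW value was from LW TN replicate 1, an animal apart on the first principal component.

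Single animals showed the opposite course of A_72_P035606 and PON3. In LW TN, replicates 1 and 6 were highest for PON3 (13.04 and 13.10) and lowest for A_72_P035606 (13.86 and 13.87). In CR TN, replicate 4 was lowest for PON3 (10.05) and highest for A_72_P035606 (14.21). In F1 TN, replicates 2, 4 and 5 were lowest for PON3 (9.17, 9.49 and 10.34) and had A_72_P035606 at 14.14, 14.06 and 14.27, against 13.38 to 13.43 in the other 3 animals. In CR HS the order was not complete, since replicate 1 (13.12 for PON3) and replicate 6 (9.97 for PON3) both had A_72_P035606 at 13.89. This contrast between the sets was not tested, because the sets came from the PON3 values themselves.

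**Figure D2:**
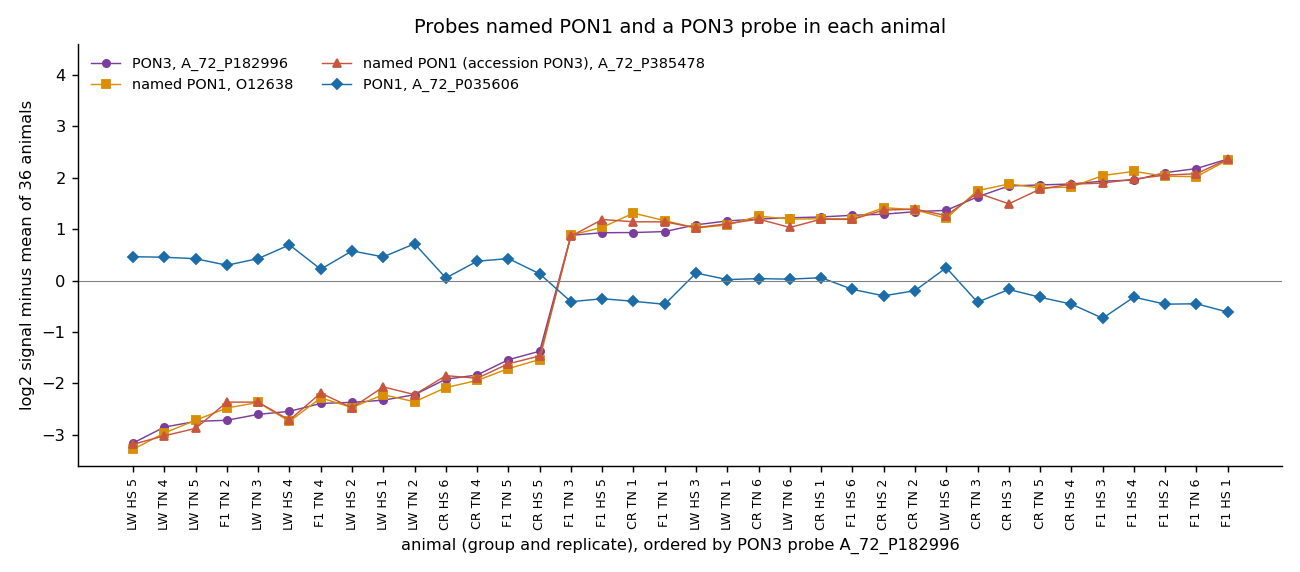
Log2 signal of 1 PON3 probe and the 3 probes named PON1, each minus its own mean over the 36 animals, with animals ordered by the PON3 probe A_72_P182996. O12638 and A_72_P385478 step up with PON3 between the 14th and the 15th animal, and A_72_P035606 runs the other way.

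Because the animals fell into sets, no correlation over all animals is given for pairs with PON3. Within the 14 animals below the gap, with each breed centred on its mean, the 5 probes correlated at r = 0.837 to 0.968 over 10 pairs (Spearman's rho 0.815 to 0.943, largest adjusted permutation p = 0.000933 for r and 0.0084 for rho). Within the 22 above it they correlated at r = 0.846 to 0.978 (rho 0.842 to 0.976, largest adjusted permutation p = 0.00016 and 0.000302). O12638 and A_72_P385478 thus followed the PON3 probes inside each set as well as across the gap. A_72_P035606 did not: against O12638 its r was 0.255 within the 14 (rho 0.253, adjusted permutation p = 0.429 and 0.447) and -0.468 within the 22 (rho -0.414, adjusted permutation p = 0.0427 and 0.072). In all, 41 relations were computed, and p-values were adjusted over them.

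Between the genes, PON1 (A_72_P035606) and PON3 (A_72_P182996) had r = 0.430 within the 14 animals (rho 0.455, permutation p = 0.132 and 0.119, adjusted 0.153 and 0.136) and -0.357 within the 22 (rho -0.372, permutation p = 0.126 and 0.0989, adjusted 0.151 and 0.116). Neither passed the threshold of 0.05. With slide also taken out, r was 0.683 within the 14 and -0.579 within the 22, values for which no p was computed. PON2 (O9320) and PON3 had r = 0.217 within the 14 (rho 0.103, adjusted permutation p = 0.513 and 0.773) and 0.024 within the 22 (rho 0.00734, adjusted permutation p = 0.915 and 0.978). With slide taken out, these were -0.123 and 0.105, so the sign within the 14 turned. PON1 and PON2 correlated over all 36 animals, centred on the 6 groups, at r = 0.639 (rho 0.622, adjusted permutation p = 0.000262 and 0.000499). Without the 2 animals farthest from the PON1 median r was 0.552. With all 36 animals and slide taken out beside group, r was 0.673. Within the 14 animals, however, r was 0.0662 (rho -0.0637, adjusted permutation p = 0.858 and 0.88), and within the 22 it was 0.371 (rho 0.39, adjusted permutation p = 0.153 and 0.116). With slide taken out, these were 0.0399 and 0.469, with no p computed. The relation between PON1 and PON2 was therefore not detected within either PON3 set. Each set holds fewer animals, so a relation there is not excluded.

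The breeds differed for all 3 genes when CR was set against LW. Of the 11 probes, 10 passed an adjusted p of 0.05 in limma, against 26.5% of all kept probes in that comparison. The 11 are not independent measurements, here or in the comparisons below. The gap is shared by 5 of them, and A_72_P006641 and O9320 overlap by 57 bases. PON1 (A_72_P035606) was lower in CR by 0.52 ± 0.12 (log2 difference ± SE, adjusted p = 0.00114), that is 0.696 times the LW signal, and all 12 CR animals lay below the LW median. The mean was 14.23 ± 0.23 in LW (SD, n = 12) and 13.70 ± 0.26 in CR. The difference had the same sign on each of the 5 slides, from -0.92 to -0.07, with 1 to 3 animals per breed on a slide.

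PON2 was lower in CR as well. O9320 had 13.48, 13.71 and 14.04 in LW (lowest, median, highest of 12 animals), 12.52, 13.27 and 13.92 in CR, and 12.93, 13.44 and 13.98 in F1. The breeds overlapped, and 11 of 12 CR animals lay below the LW median. The difference between CR and LW was -0.53 ± 0.13 (adjusted p = 0.00307) at O9320 and -0.54 ± 0.13 (adjusted p = 0.00253) at the overlapping probe A_72_P006641. It was wider at A_72_P107711 (-1.11 ± 0.20, adjusted p = 0.000149) and at A_72_P538923 (-0.97 ± 0.19, adjusted p = 0.000269). At A_72_P306623, named by its description alone, it was -0.44 ± 0.20 and did not pass (adjusted p = 0.103). The difference at O9320 ran from -1.13 to -0.01 over the 5 slides, and without slide 2 it was -0.36 and no longer passed.

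The 5 PON2 probes rose and fell together across animals. Over all 36 animals, centred on the 6 groups, their 10 pairs had r between 0.55 and 0.977 (rho 0.527 to 0.974, largest adjusted permutation p = 0.00381 for r and 0.00518 for rho). The lowest values belonged to pairs with A_72_P306623.

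**Figure D3:**
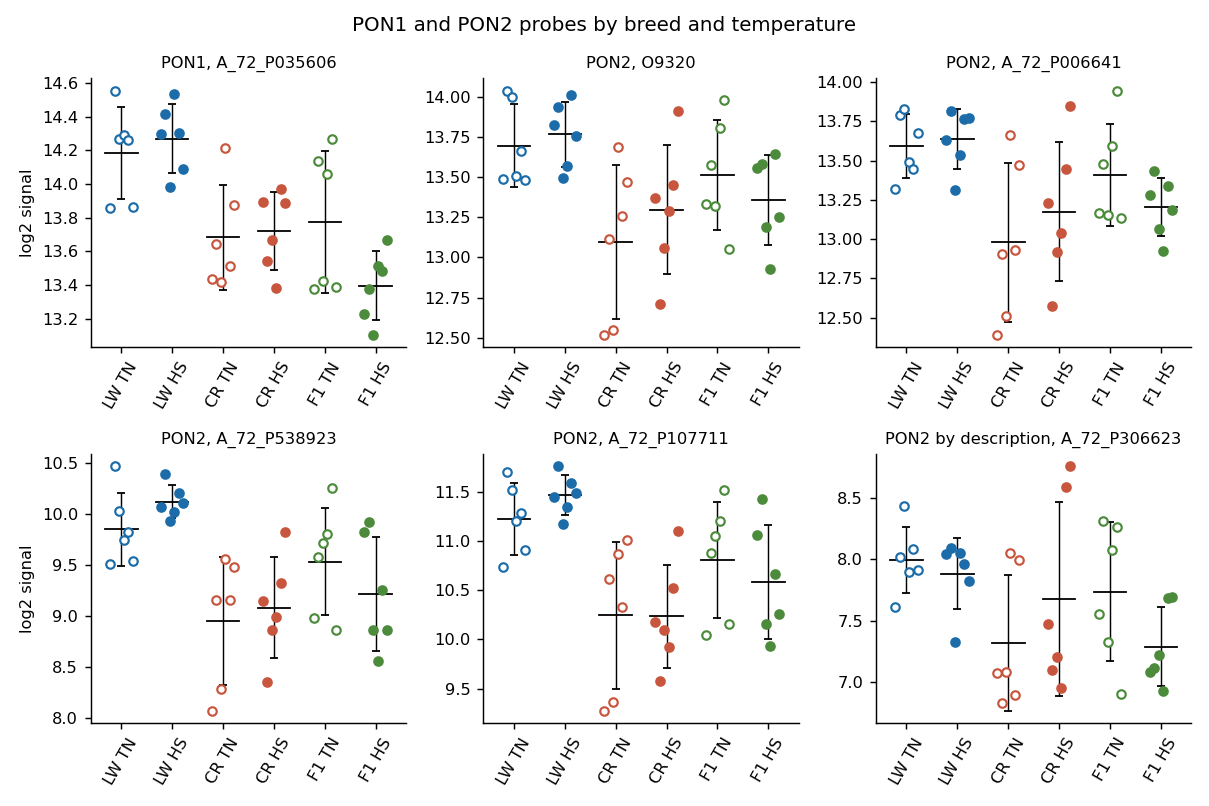
Signal of the PON1 probe A_72_P035606 and the 5 PON2 probes in each animal by group (log2 signal, 1 point per animal, open for TN and filled for HS, with the mean as a line and the SD as a bar). LW animals lie highest on average at every probe, and no F1 HS animal reaches the lowest LW value of PON1.

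PON3 was higher in CR than in LW. The difference was 2.0 ± 0.67 at A_72_P182996 (adjusted p = 0.024), 1.58 ± 0.56 at A_72_P223547 (adjusted p = 0.0323) and 1.63 ± 0.59 at A_72_P504977 (adjusted p = 0.0393). O12638 and A_72_P385478 differed by 2.07 ± 0.67 (adjusted p = 0.0207) and 2.03 ± 0.65 (adjusted p = 0.0192). Beside these mean differences stand the counts of animals below the gap, 8 of 12 in LW and 3 of 12 in CR. The p-values compare means of values that fall into separate sets, and all 5 probes repeat the same division. The LW animals are also those of the F1 comparison, whose PON3 difference was known when the family was chosen. These p-values are therefore given as a description. The difference at A_72_P182996 was 1.77, 3.65, 1.92 and 4.68 on slides 1 to 4 and -1.99 on slide 5, so it did not hold on every slide. Without slide 2, 3 or 4 it was 1.57, 2.03 or 1.23 and no longer passed (adjusted p = 0.177, 0.0692 and 0.27).

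F1 animals were set against LW next, with 6 of 11 probes called against 18.4% of all kept probes. The 6 included A_72_P182996, O12638 and A_72_P385478, which share the gap. The count thus holds the PON3 difference known when the family was chosen, and it is a description. PON1 (A_72_P035606) was lower in F1 by 0.64 ± 0.12 (adjusted p = 0.000604), and all 12 F1 animals lay below the LW median. The PON1 difference had the same sign on all 5 slides, from -1.0 to -0.20. PON2 was lower in F1 at A_72_P107711 (-0.65 ± 0.20, adjusted p = 0.0237) and A_72_P538923 (-0.61 ± 0.19, adjusted p = 0.0205). At O9320 and A_72_P006641 the differences were -0.30 ± 0.13 and -0.31 ± 0.13 (adjusted p = 0.115 and 0.0973). The difference of PON3 between F1 and LW was known when the family was chosen, and it is given as a description. It was 1.99 ± 0.67 at A_72_P182996, 1.47 ± 0.56 at A_72_P223547 and 1.52 ± 0.59 at A_72_P504977. A_72_P223547 and A_72_P504977 were not among the probes called (limma adjusted p = 0.0596 and 0.0695). O12638 and A_72_P385478 differed by 2.08 ± 0.67 and 2.09 ± 0.65. Both the CR and the F1 comparison used the same LW animals.

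F1 and CR were not told apart at any family probe (0 of 11 called, against 1.5% of all kept probes). The difference was -0.12 ± 0.12 for PON1, 0.24 ± 0.13 for PON2 at O9320 and -0.01 ± 0.67 for PON3 at A_72_P182996. Against the mean of LW and CR, 0 of 11 probes were called in F1 (1.12% of all kept probes). PON1 was nearest to the threshold, at -0.38 ± 0.10 (adjusted p = 0.0525). It passed when only probes detected on all 36 arrays were tested (adjusted p = 0.046) and with array weights (adjusted p = 0.0434). Without LW TN replicates 1 and 6, the animals apart on the first principal component, its value was -0.42 (adjusted p = 0.0182), the F1 against LW count was 8 and the CR against LW count 10.

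**Figure D4:**
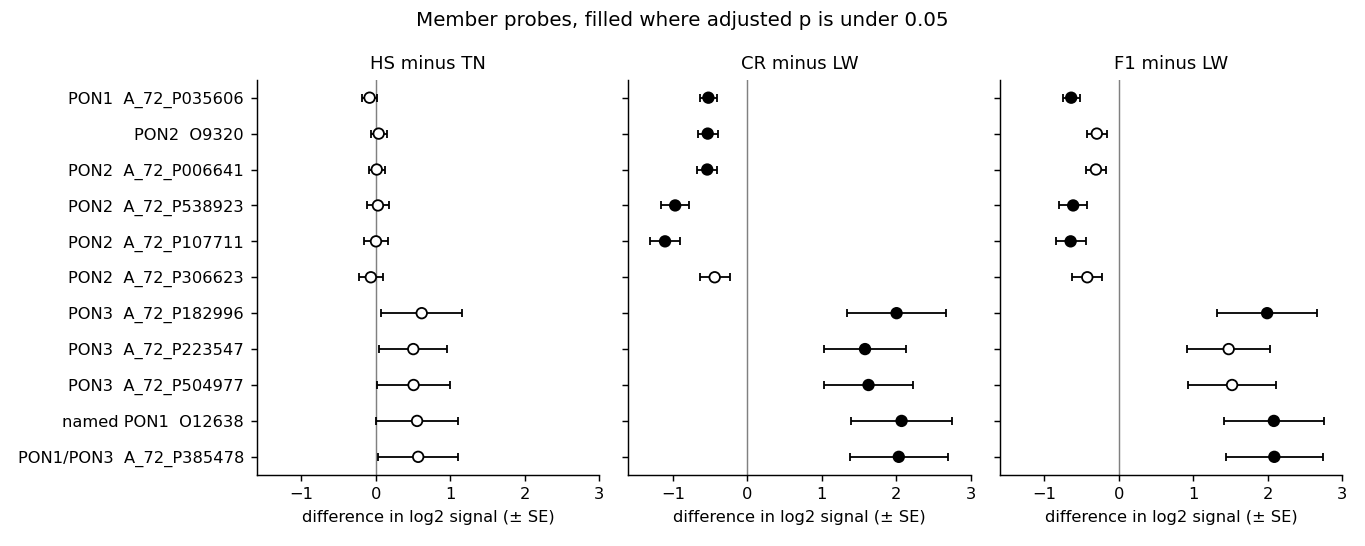
Difference in log2 signal with its SE at the 11 family probes for HS minus TN, CR minus LW and F1 minus LW, filled where the limma adjusted p was under 0.05. No probe is filled for temperature, and PON1 and PON2 lie on the opposite side of 0 from PON3, O12638 and A_72_P385478 in both breed comparisons. The PON3 difference between F1 and LW was known when the family was chosen.

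No family probe was called between HS and TN (0 of 11 probes against 0.859% of all kept probes), and none had an unadjusted p under 0.05. The difference was -0.08 ± 0.10 for PON1 (13.88 ± 0.39 at TN, SD, against 13.80 ± 0.42 at HS, with 18 animals each), 0.04 ± 0.11 for PON2 at O9320 and 0.62 ± 0.55 for PON3 at A_72_P182996. This SE of PON3 is of the size of the breed differences given for PON1, so a temperature difference of that size was not detectable for PON3. The test of whether the response to heat depended on breed called 0 of 11 probes (0% of all kept probes).

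Within a breed, 0 of 11 probes were called in LW (0% of all kept probes), in CR (0%) and in F1 (0.00893%). The widest differences were in F1, where PON3 at A_72_P182996 averaged 11.44 ± 2.04 at TN and 13.64 ± 0.54 at HS (SD over 6 animals each). That is a difference of 2.20 ± 0.91, with an unadjusted limma p of 0.022 and an adjusted p of 0.436. PON1 differed by -0.38 ± 0.16 in F1 (unadjusted p = 0.0224, adjusted p = 0.437). The counts behind the PON3 value are 3 of 6 F1 TN and 0 of 6 F1 HS animals below the gap.

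The order of the group means summarises these levels. PON1 (A_72_P035606) went from LW HS (14.27 ± 0.20) and LW TN (14.18 ± 0.27) through F1 TN (13.77 ± 0.42), CR HS (13.72 ± 0.23) and CR TN (13.68 ± 0.31) to F1 HS (13.40 ± 0.20). PON2 (O9320) went from LW HS (13.77 ± 0.20) and LW TN (13.70 ± 0.26) through F1 TN (13.51 ± 0.34), F1 HS (13.36 ± 0.28) and CR HS (13.30 ± 0.40) to CR TN (13.10 ± 0.48). PON3 (A_72_P182996) began with F1 HS (13.64 ± 0.54) and went through CR TN (12.74 ± 1.36), CR HS (12.37 ± 1.69) and F1 TN (11.44 ± 2.04) to LW HS (10.56 ± 2.0) and LW TN (10.54 ± 1.97). In all 3 orders, each step between neighbouring groups was smaller than the larger of their SDs.

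The neighbouring genes on chromosome 9 were read as well. RefSeq lists 15 other genes within 1 Mb of the family, of which 9 had a kept and named probe. Between CR and LW, 0 of the 9 were called at their brightest probe (26.5% of all kept probes were), and the median difference was -0.09 against 0.00 for all kept probes. PDK4, a kinase that switches off pyruvate dehydrogenase, had -0.28 ± 0.13 (adjusted p = 0.118). PPP1R9A, whose annotated span overlaps the lower-coordinate end of PON1, had -0.03 ± 0.10 (adjusted p = 0.861). ASB4, the neighbour on the PON2 side, had -0.01 ± 0.15 (adjusted p = 0.958). SGCE and PEG10, an imprinted pair, had -0.22 ± 0.11 and -0.04 ± 0.10 (adjusted p = 0.161 and 0.79), and DYNC1I1, a dynein chain, had -0.38 ± 0.18 (adjusted p = 0.121). SLC25A13, the liver aspartate and glutamate carrier, had -0.03 ± 0.07 (adjusted p = 0.775). Between F1 and LW, 2 of the 9 were called, against 18.4% of all kept probes: COL1A2, a collagen chain, and CASD1, a sialic acid acetyltransferase, were lower, by 0.50 ± 0.18 and 0.23 ± 0.07 (adjusted p = 0.0437 and 0.0292). Between HS and TN, 0 of the 9 were called (0.859% of all kept probes).

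**Figure D5:**
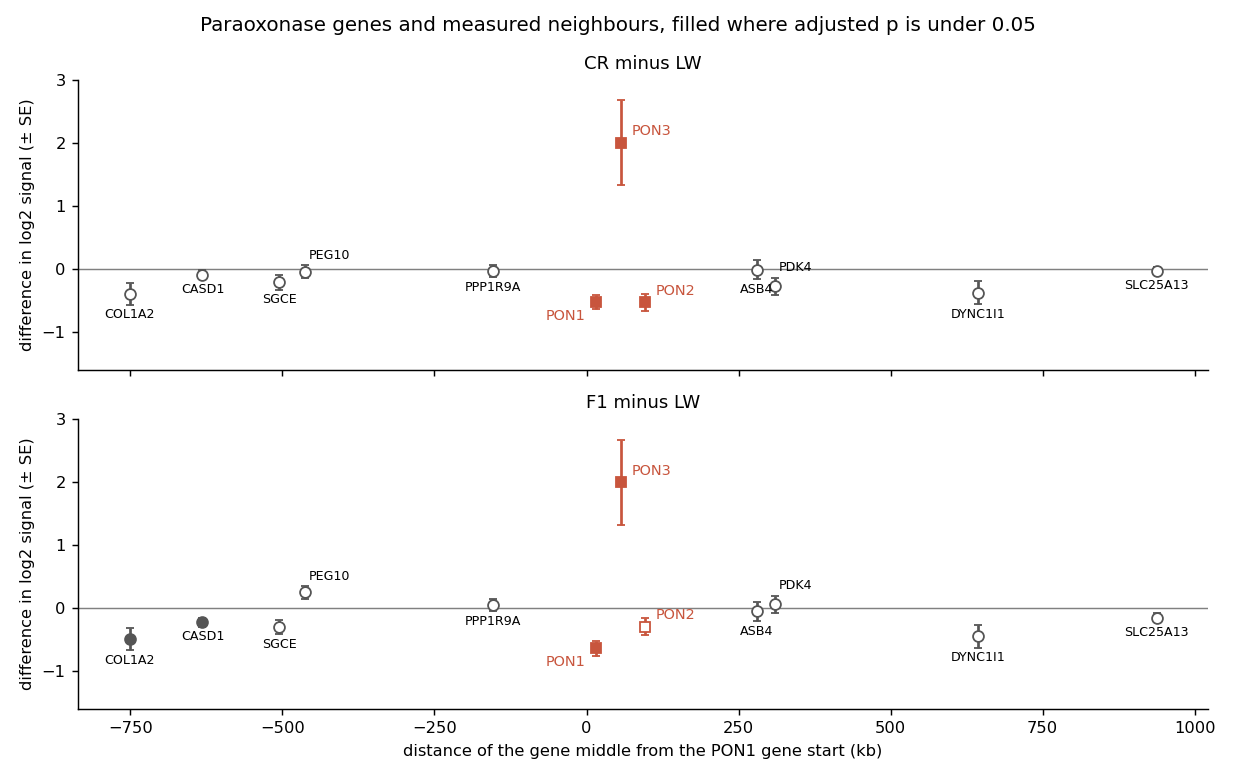
Difference in log2 signal with its SE for the paraoxonase genes (squares) and the 9 measured neighbours (circles), by distance in kb from the PON1 gene start, filled where the limma adjusted p was under 0.05. PON3 stands near 2.0 in both comparisons, while PON1 and PON2 next to it lie below 0. For F1 minus LW, the PON3 value was known when the family was chosen.

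Genes of the HDL particle, on which PON1 and PON3 travel, were read from a list of 29, of which 24 were measured. Between CR and LW, 0 were higher and 5 lower, where 26.5% of all kept probes were called, with a median of -0.08 against 0.00 for all kept probes. The widest differences were at PLTP, the phospholipid transfer protein (-1.13 ± 0.14, adjusted p = 6.75e-07), LIPC, hepatic lipase (-0.59 ± 0.09, adjusted p = 2.29e-05), and APOH (-0.22 ± 0.06, adjusted p = 0.00427). Between F1 and LW, where 18.4% of all kept probes were called, 0 were higher and 4 lower, among them PLTP (-0.55 ± 0.14), LIPC (-0.44 ± 0.09) and APOA2, a main HDL protein (-0.28 ± 0.07). APOA2 was also below the mean of the parent breeds, at -0.31 ± 0.06 (adjusted p = 0.008). Between HS and TN, where 0.859% of all kept probes were called, 2 of 24 were higher and 0 lower: CLU, clusterin, a chaperone carried on HDL (0.32 ± 0.06, adjusted p = 0.00716), and APOF (0.33 ± 0.07, adjusted p = 0.0206). Between F1 and CR, where 1.5% of all kept probes were called, PLTP was higher (0.57 ± 0.14) and APOA2 lower (-0.33 ± 0.07).

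Other hydrolases of esters, lactones and epoxides split in direction. Of 20 listed, 15 were measured. Between CR and LW, 3 were higher and 3 lower, against 26.5% of all kept probes called in either direction, with a median of 0.04. EPHX2, the soluble epoxide hydrolase, was higher by 1.04 ± 0.16 (adjusted p = 1.51e-05) and LIPA, lysosomal acid lipase, by 0.76 ± 0.10 (adjusted p = 9.79e-07), while BPHL differed by -0.68 ± 0.14 (adjusted p = 0.000416). Between F1 and LW, EPHX2 (0.91 ± 0.16) and LIPA (0.47 ± 0.10) were higher and 0 were lower, against 18.4% of all kept probes called. BPHL was the only one called between F1 and CR (0.61 ± 0.14), where 1.5% of all kept probes were called. Between HS and TN, 0 of 15 were called, against 0.859% of all kept probes.

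All 12 transcription factors listed for their links to paraoxonase genes were measured. Between CR and LW, where 26.5% of all kept probes were called, 1 was higher and 1 lower, with a median of 0.18 against 0.00 for all kept probes: JUN, a subunit of the AP-1 factor, was higher (0.57 ± 0.15, adjusted p = 0.00368) and PPARG, a nuclear receptor of fat storage, lower (-0.17 ± 0.06, adjusted p = 0.0417). JUN was also higher in F1 than in LW (0.60 ± 0.15, adjusted p = 0.0051). ESR1, the oestrogen receptor, was lower in HS than in TN (-0.33 ± 0.06, adjusted p = 0.00892).

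Among markers of other liver cells, those of macrophages and endothelium were called in CR and in F1 against LW more often than kept probes at large. Counts for lymphocyte, stellate cell and cholangiocyte markers were small and nearer the share of all kept probes. Of the red blood cell markers, 0 of 3 were called between CR and LW or between F1 and LW. Between CR and LW, 5 of 7 Kupffer cell and macrophage markers, 4 of 5 endothelial markers, 3 of 7 lymphocyte markers and 1 of 7 stellate cell markers were lower, and 1 of 5 cholangiocyte markers was higher, where 26.5% of all kept probes were called. Between F1 and LW, 5 of 7 macrophage, 3 of 5 endothelial, 2 of 7 lymphocyte and 2 of 7 stellate cell markers were lower, where 18.4% of all kept probes were called. The mean log2 level of the macrophage markers was 11.42 in CR HS, the lowest group, and 12.17 in LW HS, the highest, and that of the endothelial markers 9.32 in CR HS and 9.93 in LW TN. The mean of the 7 hepatocyte markers was 17.75 in CR TN and 17.81 in LW HS, with 2 of 7 called lower in CR. Between F1 and CR, 0 of 7 macrophage markers were called and 1 of 5 endothelial markers was higher, against 1.5% of all kept probes. Between HS and TN, no marker of any of the 7 lists was called (0.859% of all kept probes were). The defining markers ALB, CD163, CD3E, COL1A1, PECAM1, KRT19 and HBB were all kept. In bulk liver, fewer cells of a type and less RNA per cell cannot be told apart, and the part of cell composition in the differences of PON1, PON2 and PON3 was not tested.

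The named genes most like each member were sought among 10394 genes, as Pearson's r over the 36 animals after centring on the 6 groups, and are given as a ranking with no test. For PON1 (A_72_P035606) they were EIF2A (r = 0.578, rho 0.553), ERCC8 (0.566, rho 0.593) and FZD1 (0.563, rho 0.573). Their r with PON1 was 0.326, 0.591 and 0.545 within the 14 animals below the PON3 gap and 0.185, 0.457 and 0.185 within the 22 above it. For PON2 (O9320) they were ZNF146 (0.762, rho 0.734), SUMO3 (0.734, rho 0.734) and TMEM164 (0.696, rho 0.595). Their r with PON2 was 0.53, 0.151 and -0.214 within the 14 and 0.657, 0.522 and 0.505 within the 22. For PON3 (A_72_P182996) the ranking gave KIF5B, EXOC5 and ZBP1, but within the 14 animals below the gap their r was -0.299, 0.264 and -0.463, and within the 22 above it -0.0598, -0.239 and 0.248.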

How the data were processed

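Cy3-labelled liver RNA of 36 pigs was hybridised to 1-colour Agilent arrays. The deposited scanner tables hold spot intensity from Agilent Feature Extraction (version 10.10.1.1 in the submitters' processing notes). The authors also deposited a table of log2 values after quality control and quantile normalization, used here as an alternative.

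The median spot intensity was log2-transformed and quantile-normalized over 60306 non-control spots with limma 3.58.1 in R 4.3.3. The 107 non-uniform spot readings were left out and the repeated probe was averaged. Probes well above background on 6 or more arrays were kept (74.3%). Breed and temperature were fitted as additive terms, and a model of the 6 groups gave the within-breed differences and the interaction. Tests were two-sided, and p-values were adjusted (Benjamini-Hochberg) over all kept probes. Correlations used 100000 permutations within groups or breeds. They were planned over all animals and moved inside the PON3 sets once these were seen. Code was tested on simulated data.

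The family, its probes and all gene lists were chosen with earlier results of these data known. Every family probe and every measured gene within 1 Mb is named. From each other list, the 3 genes with the widest difference among those called are named. A gene is read at its brightest kept probe, named through RefSeq transcript accession, gene number, symbol or synonym (34683 of 60306 spots have no name). Array number, not read depth, limits precision. Pen, litter and slaughter day were not fitted.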

Additional observations from a re-analysis of the deposited data

Results flagged for a closer look

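In each of the 6 groups, the highest and lowest animal at each of the 11 kept probes was compared with the rest by the ratio of the gap to the range (Dixon). Of 66 group and probe combinations, 6 stood out, where chance gives about 1 in 20. Of these, 5 are 1 animal, CR TN replicate 4, at the 5 probes that share the gap: 10.05 at A_72_P182996 (other CR TN animals 12.82 to 13.74), 6.76 at A_72_P223547 (9.17 to 10.02), 6.81 at A_72_P504977 (9.37 to 10.21), 11.39 at O12638 (14.58 to 15.13) and 12.29 at A_72_P385478 (15.33 to 15.96). It is the single CR TN animal below the gap. The other is LW HS replicate 3 at the PON2 probe A_72_P306623, with 7.33 against 7.82 to 8.09.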

How the results depend on the processing

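With 1 mean per gene in place of single probes, PON1 took the opposite sign to A_72_P035606 in every comparison followed, since that mean joins probes that run opposite ways: 0.77 between CR and LW (adjusted p = 0.0466), 0.72 between F1 and LW, 0.33 against the mid-parent value, 0.24 between HS and TN and 0.91 between HS and TN within F1. Then 3 of 3 genes were called between CR and LW, the joined PON1 mean among them, and 2 between F1 and LW. The share of all genes called in that fit is not given here, so these counts are a description. Without slide 2, 3 or 4, the probes called fell from 10 to 3, 5 and 5 between CR and LW, and from 6 to 1, 1 and 1 between F1 and LW, the 1 being A_72_P035606. Fewer animals per breed remain in those fits, and the cause was not tested beyond that. Leaving out 1 animal gave 8 to 11 called between CR and LW, 3 to 9 between F1 and LW (3 without F1 HS replicate 4 and 9 without F1 TN replicate 5) and 0 to 1 against the mid-parent value. The mid-parent count was also 1 in 3 other fits: that on probes detected on all 36 arrays, that using array weights, and that leaving out the LW TN pair, a setting added after the data were seen. O9320, near 0 between HS and TN, ran from -0.01 to 0.07 with 1 animal left out and was -0.01 without slide 5. Against the mid-parent value it ran from -0.08 to 0.02 and was 0.03 without slide 5. The authors' table gave 9 and 4 called between CR and LW and between F1 and LW, where the PON3 probe A_72_P182996 had 1.46 and no longer passed (adjusted p = 0.147). With slide as a block, with processed signals, with normexp and with quantile normalization before log2 the counts stayed at 10 and 6. No alternative called a family probe between HS and TN, between F1 and CR, within a breed or for the interaction. The gap held the same 14 animals at all 5 probes in the processed signal (2.01 to 2.52), the raw median signal (1.72 to 2.54) and the authors' table (1.59 to 2.43). Without centring on groups, the genes most like PON1 were BBS5, IL33 and SFT2D1 (highest r = 0.746), and those most like PON2 were NME6, AQP11 and OXSM (highest r = 0.748). Replicate numbers only name animals here and pair none.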
